A study of Mus musculus with 6 samples.

Results

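The CXC chemokine ligands were followed as a family in hypoxic (HO) cultures of primary neonatal mouse cardiomyocytes (NMCMs). The members were chosen by name, as the genes for Cxcl1, Cxcl2, Cxcl3, Cxcl5, Cxcl9, Cxcl10, Cxcl11, Cxcl12, Cxcl14 and Cxcl16, which make 10 of the 57010 genes in the count table. RNA-seq read counts were compared between HO + Vehicle, with the 3 libraries V1 to V3, and HO + β-SITO, with the 3 libraries T4 to T6. β-SITO is β-sitosterol, a plant sterol, and both groups came from C57BL/6 mice 1 to 3 days old and had been through hypoxia, so that no normoxic library enters here. The concentration and duration of treatment are not given for these libraries in the sources used here. Primary cultures of this kind can keep non-myocytes, and in these libraries the summed level of 8 fibroblast markers (29833 to 31113 CPM with vehicle, where CPM is counts scaled to a common library size) was above that of 10 cardiomyocyte markers (5831 to 6741 CPM). Most of the fibroblast sum came from Col1a1, Col1a2 and Col3a1, with vehicle means of 9099.6, 6799.6 and 10421.5 CPM. The sums are not scaled by transcript length and do not give the share of each cell type, but markers of both were present. All values are therefore those of a mixed culture, in which fewer cells of a type and less RNA per cell cannot be told apart.

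CXC chemokines are small secreted proteins that guide leukocytes along a concentration gradient through G protein-coupled receptors. Ligands with the glutamate-leucine-arginine (ELR) motif act on Cxcr2 and draw neutrophils, whereas the interferon-induced ligands act on Cxcr3 and draw activated T cells and NK cells. Cxcl12 is made constitutively and holds Cxcr4-bearing cells in place, Cxcl14 is expressed by many resting tissues, and Cxcl16 is made as a transmembrane protein. In injured myocardium, stromal cells, endothelium and macrophages are known sources of the inflammatory members, whose transcription is driven by NF-κB and by interferon-activated STAT and IRF factors.

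All 10 members passed the filter on low counts, as did 14799 genes in all. Differentially expressed genes (DEGs) were those with an adjusted p below 0.05 in edgeR's quasi-likelihood test and a change of over 2-fold, and 8 members were DEGs that were lower with β-SITO. Over all genes tested, 10.1% were DEGs in that direction. Cxcl14 was the 1 member that was a DEG and higher, against 12.8% of all genes tested, and Cxcl12 did not pass. For 9 of the 10 members no library of either group reached into the range of the other, but this held for 70.5% of all genes tested, and 66.8% had an adjusted p below 0.05 at any fold. The median log2 fold change of the members was -7.42, against -0.0073 over all genes tested. Since the members were chosen with earlier results of these data known, this contrast describes them and tests nothing. In the vehicle libraries the members took 88279, 93435 and 95515 counts, or 0.528%, 0.560% and 0.559% of each library. With β-SITO they took 9827, 10446 and 11302 counts, or 0.0532%, 0.0616% and 0.0619%.

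**Figure D1:**
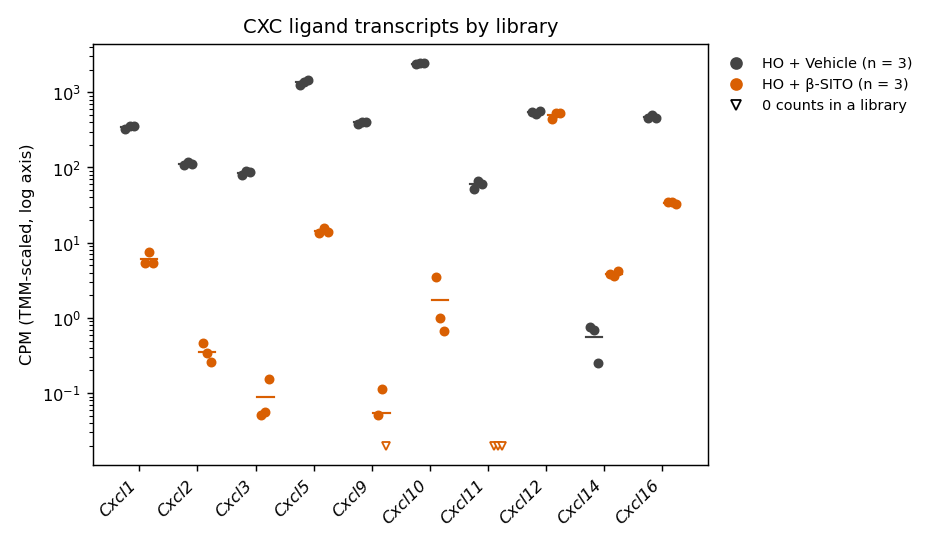
Level of each of the 10 ligands (CPM, log axis) in the 3 HO + Vehicle and the 3 HO + β-SITO libraries, 1 point a library. Cxcl12 is the only panel in which the groups overlap, and Cxcl14 the only one in which the β-SITO points lie above the vehicle points.

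Library totals ranged from 16694734 to 17082129 counts with vehicle and from 16962152 to 18460522 with β-SITO. The 10 most abundant genes held 6.93% to 7.14% of counts with vehicle and 10.4% to 10.7% with β-SITO, and mitochondrial genes 1.19% to 1.32% and 1.87% to 2.26%. The library names carry the suffix C in the β-SITO group alone, so treatment and any separate preparation of that group cannot be told apart. The labels do not say whether the libraries of a group came from separate cultures, so the p-values measure the spread between these libraries, which may be technical. An exact permutation test of 3 against 3 cannot go below p = 0.1, and p-values are therefore those of the fit across all genes.

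The sequences just upstream of 5 members that fell are shown because the members share NF-κB (κB) motif forms there. They are the 250 bases before the annotated start in RefSeq (GRCm38.p6), 5′ to 3′ on the strand of the gene. Capitals mark the κB forms GGAATTTCC and GGGNNTTCC on either strand and, in Cxcl10, the interferon element form AAANNGAAA.
Cxcl1 (chr5:90890995-90891244, plus strand): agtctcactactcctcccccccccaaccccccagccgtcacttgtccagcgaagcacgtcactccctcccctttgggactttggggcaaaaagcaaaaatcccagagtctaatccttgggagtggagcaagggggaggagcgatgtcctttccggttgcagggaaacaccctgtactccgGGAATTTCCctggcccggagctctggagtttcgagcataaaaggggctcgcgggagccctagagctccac
Cxcl2 (chr5:90903649-90903898, plus strand): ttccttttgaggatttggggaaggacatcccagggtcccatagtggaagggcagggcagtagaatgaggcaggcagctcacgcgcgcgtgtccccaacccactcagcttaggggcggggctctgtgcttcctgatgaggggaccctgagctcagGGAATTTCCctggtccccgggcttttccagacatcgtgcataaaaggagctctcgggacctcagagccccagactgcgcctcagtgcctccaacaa
Cxcl3 (chr5:90785851-90786100, plus strand): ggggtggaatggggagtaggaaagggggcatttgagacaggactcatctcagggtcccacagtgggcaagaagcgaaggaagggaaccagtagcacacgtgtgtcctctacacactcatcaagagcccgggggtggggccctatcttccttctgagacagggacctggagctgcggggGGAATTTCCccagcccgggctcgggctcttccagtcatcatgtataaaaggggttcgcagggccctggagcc
Cxcl9 (chr5:92328080-92328329, minus strand): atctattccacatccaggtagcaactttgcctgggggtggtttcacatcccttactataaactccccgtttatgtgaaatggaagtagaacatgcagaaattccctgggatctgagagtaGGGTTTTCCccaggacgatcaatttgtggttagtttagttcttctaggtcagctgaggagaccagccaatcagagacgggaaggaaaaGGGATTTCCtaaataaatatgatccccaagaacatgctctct
Cxcl10 (chr5:92348890-92349139, minus strand): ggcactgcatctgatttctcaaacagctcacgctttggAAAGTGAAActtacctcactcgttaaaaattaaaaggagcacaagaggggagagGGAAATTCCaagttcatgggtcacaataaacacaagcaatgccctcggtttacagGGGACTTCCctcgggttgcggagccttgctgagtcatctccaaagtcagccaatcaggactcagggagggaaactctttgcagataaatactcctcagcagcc

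The same 9 bases, GGAATTTCC, lay at -70 to -62 from the start of Cxcl1, at -96 to -88 of Cxcl2 and at -72 to -64 of Cxcl3. Cxcl10 held the reverse complement, GGAAATTCC, at -158 to -150. Over 32851 promoter windows of this length, 0.286% held this motif on either strand. The second form, GGGNNTTCC (reverse complement GGAANNCCC), was found in 4.98% of windows, at 2 places in Cxcl9 (-130 to -122 and -42 to -34) and at -103 to -95 in Cxcl10. Either form was present in 5 of the 7 members that the promoter table holds and in 5.25% of all windows; Cxcl12 and Cxcl14 held neither. The interferon element form AAANNGAAA, in 9.37% of windows, was found in Cxcl10 at -212 to -204 and in Cxcl14, the member that rose, at -171 to -163. The palindrome TTCNNNGAA, a form of STAT-family sites, was in 7.02% of windows and in none of the 5 shown, and Cxcl14 held it at -191 to -183. The TATA form ATAAAAGG began at -34 in Cxcl1, at -57 in Cxcl2 and at -29 in Cxcl3, against 1.54% of windows with it. These motifs were chosen with the sequences in view, and a match describes the letters of the window only. No promoter window was available for Cxcl5, Cxcl11 and Cxcl16, so they were not searched.

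The 4 ELR members, Cxcl1, Cxcl2, Cxcl3 and Cxcl5, all fell. Cxcl5, made by epithelial and stromal cells and a ligand of Cxcr2, was the most abundant of them, at 1262, 1363 and 1446 CPM in the vehicle libraries and 13.3, 15.6 and 14.1 CPM with β-SITO. The groups were far apart and each was tight, and the log2 fold change was -6.57 ± 0.08 (SE, n = 3 and 3; edgeR adjusted p = 4.19e-17). The gene, ENSMUSG00000029371, lies at chr5:90907219-90909483 on the plus strand (GRCm39, as are all gene positions given here). Cxcl1, the mouse chemokine long known as KC, was at 328, 361 and 359 CPM with vehicle and at 5.29, 7.42 and 5.31 CPM with β-SITO. Among the ELR members this was the smallest fall, with a log2 fold change of -5.87 ± 0.11 (SE; edgeR adjusted p = 3.48e-16).

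Cxcl2, also named MIP-2 and secreted by activated macrophages and stromal cells, was at 107, 117 and 113 CPM in the vehicle libraries and at 0.463, 0.337 and 0.260 CPM with β-SITO. The β-SITO values rested on 9, 6 and 5 reads, against 1694 to 1874 reads with vehicle. Its log2 fold change was -8.28 ± 0.27 (SE; edgeR adjusted p = 1.06e-16). Cxcl3, the closest relative of Cxcl2 in the mouse, was at 80.7, 88.8 and 86.0 CPM with vehicle. In the β-SITO libraries it was reduced to 1, 1 and 3 reads (0.0514, 0.0562 and 0.156 CPM). The ratio of the depth-scaled counts was 961.7-fold, with a counting interval of 411.8 to 2964 (95%, exact), which covers counting error only. The edgeR log2 fold change of Cxcl3 was -9.80 ± 0.55 (SE; adjusted p = 2.39e-16), and it was -10.44 without T6 and -8.71 with a prior count of 2. Annotated transcripts of Cxcl2 and Cxcl3 share an exact stretch of 110 bases, and how reads that map to several places were counted is not given, so reads may be split between this pair. No other pair of members shares more than 23 bases.

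Cxcl1, Cxcl2 and Cxcl3 lie with Cxcl5 in 146.6 kb of chromosome 5, Cxcl3 at 90933962 to 90937459, Cxcl1 at 91039100 to 91040974 and Cxcl2 at 91051730 to 91053797, all on the plus strand. Their transcripts are also rich in ATTTA, the core of AU-rich elements through which such mRNAs are held unstable. The longest coding transcript of Cxcl1 had 7 copies, or 7.35 per kb, a density reached by 0.0822% of 21901 coding genes. Cxcl2 had 11 copies (5.92 per kb, reached by 0.187%), Cxcl3 had 5 copies (4.92 per kb, 0.502%) and Cxcl5 had 5 copies (3.18 per kb, 4.11%). The 4 ELR members thus held the 4 highest densities among the 10 members, all above the median of 0.822 per kb over coding genes. Cxcl10 followed at 2.96 per kb, Cxcl11 and Cxcl9 were at 1.27 and 1.04, and Cxcl16, Cxcl12 and Cxcl14 were below the median, at 0.741, 0.711 and 0.547. Of the ELR members, Cxcl1 had the highest density and the smallest fall. Copies were counted over the whole transcript, and a part of these elements in the changes was not tested.

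The interferon-induced ligands were nearly lost from the β-SITO libraries. Cxcl10 (IP-10), which attracts activated T cells through Cxcr3, was the most abundant member with vehicle, at 2363, 2437 and 2444 CPM, and it alone held 0.224% to 0.233% of all counts. This placed it 26th by CPM among all genes of the vehicle libraries. With β-SITO it was at 3.49, 1.01 and 0.677 CPM, from 68, 18 and 13 reads. T4 was thus well above T5 and T6, although all 3 were far below every vehicle library. The log2 fold change was -10.42 ± 0.31 (SE; edgeR adjusted p = 6.28e-15), and it was -11.48 without T4.

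Cxcl9 (MIG), typically the most interferon-γ-dependent of the group, was at 379, 409 and 403 CPM with vehicle. The β-SITO libraries held 1, 2 and 0 reads of it, against 5998, 6519 and 6502 reads with vehicle. The ratio of depth-scaled counts was 7470-fold, with a counting interval of 2556 to 36226 (95%, exact). The log2 fold change of Cxcl9 was -12.68 ± 0.74 (SE; edgeR adjusted p = 2.36e-17), and it was -13.52 without T5 and -11.21 with a prior count of 2. Cxcl11 (I-TAC), which binds Cxcr3 and the scavenger Ackr3, was at 52.1, 66.1 and 60.2 CPM with vehicle and had no read in any β-SITO library. Taking 3 counts per library as the floor that a count of 0 allows, Cxcl11 was at least 353-fold lower (edgeR adjusted p = 1.72e-13). The annotation lists both a coding and a polymorphic pseudogene transcript for this gene, so its reads show RNA and not that a protein was made.

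The interferon-induced ligands sit on the minus strand in 44.1 kb of chromosome 5, with Cxcl9 at 92469206 to 92475938, Cxcl10 at 92494497 to 92496748 and Cxcl11 at 92507403 to 92513344. Art3, an ADP-ribosyltransferase family gene on the plus strand, overlaps Cxcl10 and Cxcl11. Whether the counting used strand is not given, so reads of such overlapping genes may not be told apart. Art3 was at 70.8, 66.0 and 73.1 CPM with vehicle and 25.6, 40.1 and 40.6 CPM with β-SITO, a log2 fold change of -0.98, within 2-fold. It was a DEG without V2, T5 or T6 (-1.02 to -1.08) and with limma-voom in place of edgeR (-1.01).

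**Figure D2:**
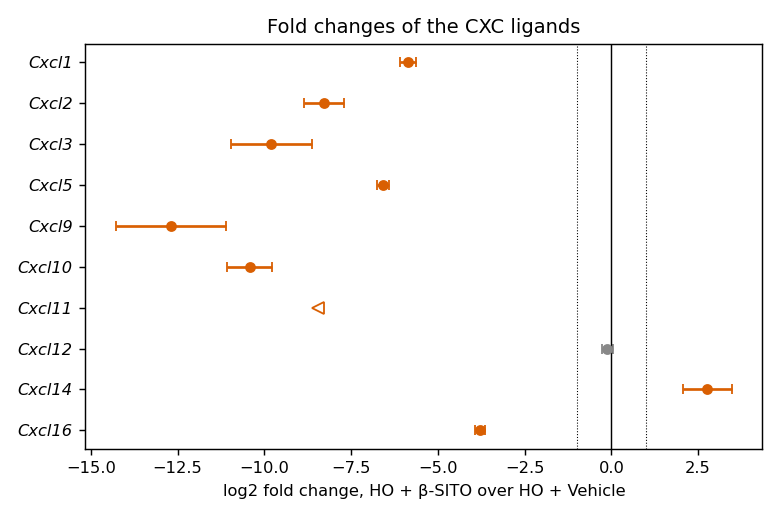
Log2 fold change of each ligand in HO + β-SITO over HO + Vehicle, with bars for the 95% interval of the edgeR fit and dotted lines at 2-fold; grey marks the member that was not a DEG. Cxcl9 has the lowest point, -12.68, and the open triangle places Cxcl11 at its bound, at least 353-fold lower, because it had no read with β-SITO.

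Cxcl16 fell too, by less than the other ligands that fell. It is a transmembrane ligand of Cxcr6 that also takes up oxidised lipoprotein, and proteases release its soluble chemokine form. Its levels were 451, 504 and 452 CPM with vehicle and 34.6, 34.7 and 32.9 CPM with β-SITO. The log2 fold change was -3.78 ± 0.07 (SE; edgeR adjusted p = 6e-16), and the 95% interval, -3.92 to -3.64, did not meet that of any other member. The gene lies on chromosome 11 at 70344809 to 70350810 on the minus strand and is overlapped by Zmynd15 on the plus strand.

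Cxcl12 (SDF-1), the constitutive ligand of Cxcr4, did not pass the test. Its levels were 553, 511 and 556 CPM in the vehicle libraries and 444, 524 and 531 CPM with β-SITO. T5 and T6 lay within the vehicle range and T4 lay below it. The log2 fold change was -0.11 ± 0.07 (SE; edgeR adjusted p = 0.183), with a 95% interval of -0.27 to 0.04, and its sign turned to 0.032 with upper-quartile scaling and to 0.037 with scaling by library size alone, which moved the median of all genes by 0.14 and 0.15. The p-value does not show that its level was the same in both groups. Cxcl12 lies on chromosome 6 at 117145496 to 117158328, away from the clusters of chromosome 5.

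Cxcl14 (BRAK), a homeostatic chemokine of epithelia and stroma, was the 1 member that rose. It was at 0.758, 0.690 and 0.248 CPM with vehicle, from 12, 11 and 4 reads. With β-SITO it was at 3.85, 3.60 and 4.16 CPM, from 75, 64 and 80 reads. The groups did not overlap, and the log2 fold change was 2.77 ± 0.33 (SE; edgeR adjusted p = 4.88e-07). The count ratio was 6.88, with a counting interval of 4.60 to 10.7 (95%, exact). Even so, its level with β-SITO stayed low, ranked 11609th by CPM among all genes. The gene lies on chromosome 13 at 56436456 to 56444364 on the minus strand.

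Levels were compared between members per length of coding transcripts, as CPM per kb (RPKM). With vehicle the order was led by Cxcl10 at 1589 ± 29.5 RPKM (SD, n = 3), Cxcl5 at 862 ± 58.6 and Cxcl1 at 367 ± 19.4. Cxcl16 (174 RPKM), Cxcl9 (137), Cxcl3 (83.8), Cxcl12 (75.4), Cxcl2 (60.4) and Cxcl11 (37.6) followed, and Cxcl14 was last at 0.309 RPKM. The rank of Cxcl12 depends on which of its transcripts is used, since its level was 95.9 to 287 RPKM for single coding transcripts. Of the 10 vehicle ranks, 7 held with the length of all annotated exons, 8 with the longest coding transcript and 5 with the shortest.

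With β-SITO the order was led by Cxcl12 at 69.8 ± 6.77 RPKM (SD, n = 3), followed by Cxcl16 at 12.6 ± 0.377, Cxcl5 at 9.09 ± 0.731 and Cxcl1 at 6.30 ± 1.28. Cxcl14 (2.12 RPKM) and Cxcl10 (1.14 ± 1.01) overlapped between libraries, as did Cxcl2 (0.190) and Cxcl3 (0.0865). All 10 of these ranks held under the other 3 lengths. The summed level of the family fell from 3386 ± 122 to 101 ± 6.90 RPKM (SD, n = 3 each), or 33.4-fold. The size of this fall rests on the length given to Cxcl12, and with the shortest coding transcripts the sums were 4257 ± 132 and 299 ± 25.3 RPKM, or 14.3-fold.

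The make-up of the family, as shares of summed RPKM, turned over. The interferon-induced ligands held 51.4% to 52.9% with vehicle and 0.429% to 2.48% with β-SITO. The 4 ELR members held 39.5% to 41.5% with vehicle and 14.2% to 16.8% with β-SITO. Cxcl12 alone held 2.07% to 2.38% with vehicle and 66.3% to 71.4% with β-SITO, while its own level did not pass the test. Cxcl16 held 4.82% to 5.42% and 11.7% to 13.7%. These shares depend on transcript length too: with the shortest coding transcripts Cxcl12 held 6.31% to 7.17% and 87.7% to 90.3%, the interferon-induced ligands 55.4% to 56.6% and 0.198% to 1.19%, and the ELR members 32.2% to 34.0% and 4.75% to 5.75%.

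**Figure D3:**
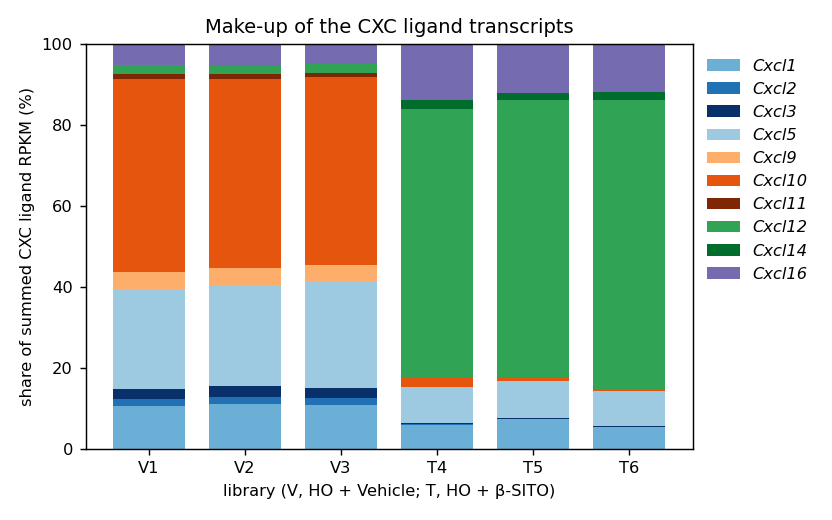
Share of the summed RPKM of the 10 ligands held by each ligand, 1 stacked bar a library, on an axis from 0 to 100%. Cxcl10 and Cxcl5 fill most of the 3 vehicle bars and Cxcl12 fills 66.3% to 71.4% of each β-SITO bar.

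The genes around the clusters of chromosome 5 were read to see whether the whole stretch moved with the ligands. Within 250 kb of the Cxcl5 cluster, 5 other genes were tested, of which 2 were lower DEGs and 2 higher. The higher pair, Pf4 and Ppbp, are platelet-type CXC ligands that lie between Cxcl5 and Cxcl3, so neighbours of 1 family went in opposite directions. Ereg, an EGF receptor ligand, fell by 2.06 on the log2 scale and Mthfd2l, a mitochondrial folate enzyme, had a log2 fold change of -1.07. Around the Cxcl9 cluster, 11 genes were tested, with 2 lower DEGs and none higher. G3bp2, a stress granule protein, fell by 1.09 on the log2 scale. U90926, a non-coding RNA, had 15 to 30 reads with vehicle and none with β-SITO, at least 8.78-fold lower. The median log2 fold change of the neighbours was -0.70 and -0.81, against -5.87 or lower for each of the 7 members in the clusters. Over all genes tested the median was -0.0073, with 10.1% lower and 12.8% higher DEGs. The neighbours thus lay below the typical gene, though far less than the members did. Several of these neighbours lay near the 2-fold line, and Rassf6 (-0.70) became a DEG without T6 (-1.60), while Mthfd2l was no longer one without V2 (-0.97). Near the Cxcl9 cluster, Ccdc158 (0.99) was a higher DEG with DESeq2 in place of edgeR (1.01).

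**Figure D4:**
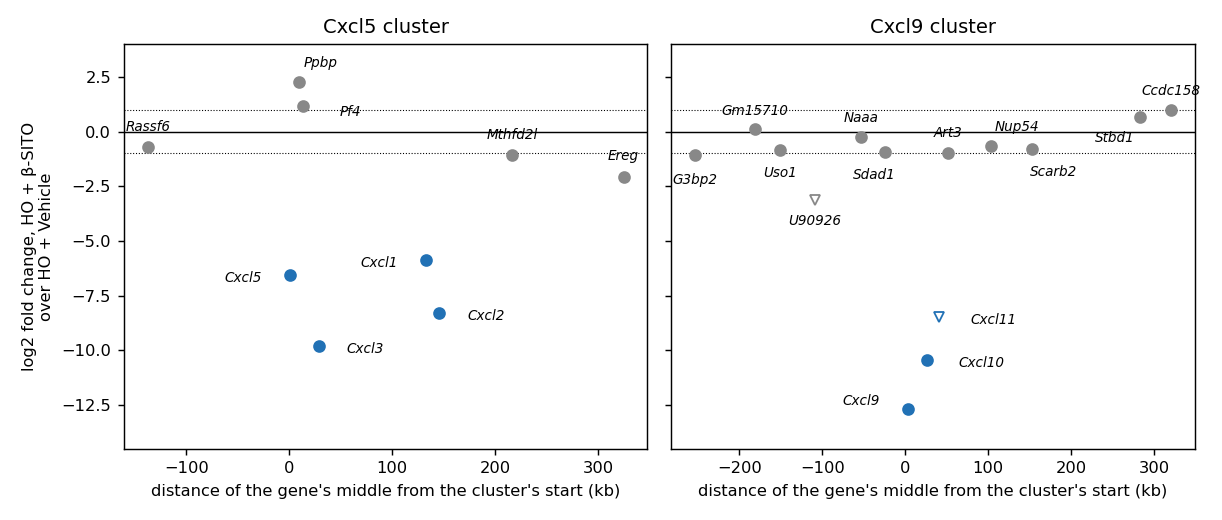
Log2 fold change (HO + β-SITO over HO + Vehicle) of tested genes by distance in kb from the start of the Cxcl5 and Cxcl9 clusters, with members in blue, other genes in grey and dotted lines at 2-fold. Open triangles show genes with no read in the β-SITO libraries, drawn at the bound that 3 counts per library allow. The 7 members lie far below the neighbours that had reads in both groups, and Pf4 and Ppbp lie above 0. U90926 is drawn at its bound of 8.78-fold, so its own fall may be larger than shown.

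The other CXC ligands were fixed as a list of 5, of which 3 were tested, with 1 lower and 2 higher DEGs. Cxcl13, the B-cell attractant that binds Cxcr5, was at 21.0, 29.8 and 29.6 CPM with vehicle and 0.360, 0.506 and 0.208 CPM with β-SITO. Its log2 fold change of -6.21 ± 0.40 (SE; edgeR adjusted p = 2.31e-12) was of the size seen for the ELR members. Pf4 (Cxcl4), a platelet and macrophage product, rose from 17.7, 24.2 and 23.3 CPM to 53.9, 47.0 and 43.2 CPM (log2 fold change 1.14 ± 0.11, edgeR adjusted p = 1.99e-07). Ppbp (Cxcl7), which also carries the ELR motif and so went against the 4 ELR members, rose as well but stayed below 1 CPM, with a log2 fold change of 2.27. Cxcl15, another ELR ligand, was under the filter, with 0, 0 and 1 reads with vehicle and 5, 14 and 8 with β-SITO, as was Cxcl17, with at most 10 reads in a library.

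The signalling receptors Cxcr1, Cxcr2, Cxcr3 and Cxcr6 were close to absent. Cxcr2, the receptor of the ELR ligands, had 1 read in T6 and none in the other libraries, and Cxcr1 had none in any. Cxcr3, the receptor of the interferon-induced ligands, had 0, 0 and 1 reads with vehicle and 13, 10 and 3 with β-SITO, under the filter. Cxcr6, the receptor of Cxcl16, had 5, 5 and 3 reads with vehicle and 1, 1 and 0 with β-SITO, and was not tested either.

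The receptors of Cxcl12 were well measured and went in opposite directions. Cxcr4, its signalling receptor, was at 6.19, 4.14 and 6.20 CPM with vehicle and 30.4, 41.3 and 35.2 CPM with β-SITO (log2 fold change 2.69 ± 0.15, SE; edgeR adjusted p = 1.84e-10). Ackr3, which binds Cxcl12 and Cxcl11 and removes them by endocytosis, was at 55.8, 49.2 and 50.2 CPM with vehicle and 17.6, 21.9 and 22.3 CPM with β-SITO (log2 fold change -1.33 ± 0.09, SE; edgeR adjusted p = 4.11e-09). Neither gene overlapped between the groups, which also held for 70.5% of all genes tested. Of the 10 genes on the list of CXC receptors and scavengers, 5 were tested, with 2 lower and 3 higher DEGs. Ackr1, a decoy that binds inflammatory chemokines, fell by 5.05 on the log2 scale. Its levels were 8.74 to 9.47 CPM with vehicle and 0.308, 0.450 and 0.0521 CPM with β-SITO, the latter from 6, 8 and 1 reads. Ackr2 and Ackr4, scavengers mainly of CC chemokines, rose, with log2 fold changes of 3.57 and 4.92, from at most 4 reads in a vehicle library, and the value of Ackr2 was 4.51 without V3. With a prior count of 2 the values were 2.81 for Ackr2 and 4.10 for Ackr4.

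**Figure D5:**
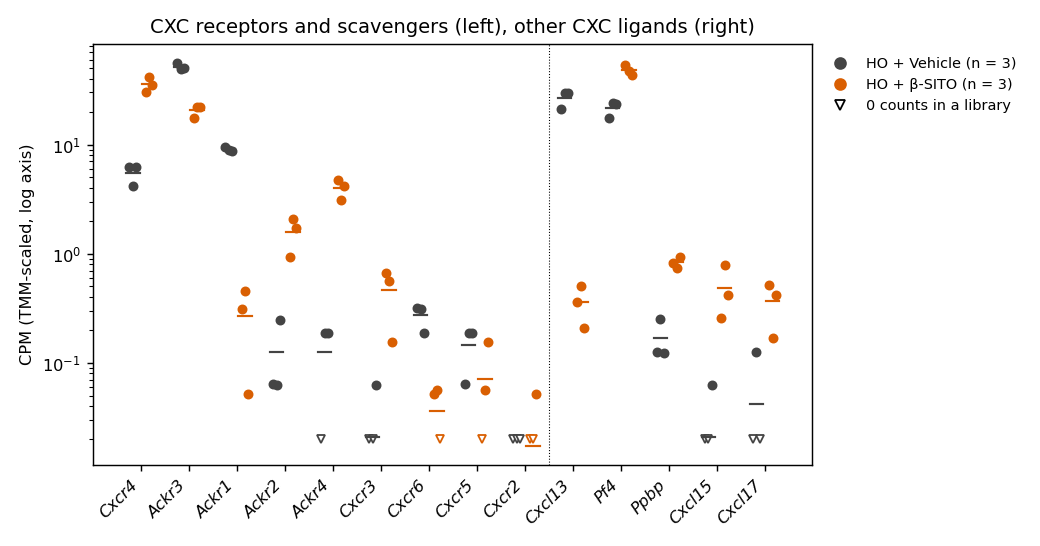
Level (CPM, log axis) of CXC receptors and scavengers (left) and of other CXC ligands (right) in each HO + Vehicle and HO + β-SITO library. Genes under the filter on low counts are drawn too, and open triangles mark libraries with no read. Of the tested receptors and scavengers, Cxcr4, Ackr2 and Ackr4 are higher with β-SITO, and Ackr3 and Ackr1 lower. The groups do not overlap for these genes, as for 70.5% of all genes tested.

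Cytokines that induce these ligands were lower as well: 5 were tested and all 5 were lower DEGs (median log2 fold change -4.83). Over all genes tested, 10.1% were lower DEGs, the share to set beside this list and those of receptors and transcription factors below. Il1b, the NF-κB-activating interleukin, was at 211 ± 12.03 CPM with vehicle and 0.122 ± 0.0763 CPM with β-SITO (SD, n = 3 each), and its log2 fold change was -10.65, or -9.78 with a prior count of 2. The log2 fold change was -8.62 for Il1a, -4.83 for Il6, -4.0 for Tnf and -1.30 for Il18. Ifng, the interferon that most strongly induces Cxcl9, and Il17a had no read in any library, and Ifnb1 had 1 read over all 6.

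Of 11 tested receptors of inducing signals, 4 were lower DEGs and none higher (median log2 fold change -0.79). Tlr2, a sensor of bacterial lipopeptides and tissue damage, was at 969 ± 55.8 CPM with vehicle and 29.8 ± 4.49 CPM with β-SITO (log2 fold change -5.02), and Tlr3, a sensor of double-stranded RNA, had a log2 fold change of -4.12. Ifnar2 (-1.69) and Tnfrsf1b (-1.40) fell less. The interferon-γ receptor chains Ifngr1 and Ifngr2 (-0.48 and -0.79), Tnfrsf1a (-0.33), Il1r1 (-0.47), Ifnar1 (-0.79) and Il17ra (-0.95, and -1.01 without V2 or T4) did not exceed 2-fold in the full fit, and Tlr4 (-0.23, edgeR adjusted p = 0.0801) did not pass the test at any fold.

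Of 13 NF-κB and interferon transcription factors tested, 10 were lower DEGs and none higher (median log2 fold change -2.52). Irf7, which drives interferon responses, was at 1226 ± 75.7 CPM with vehicle and 10.7 ± 1.49 CPM with β-SITO (log2 fold change -6.85). Stat2 and Irf9, which act in the response to type I interferon, fell, with log2 fold changes of -3.43 and -1.67, as did Irf1 (-3.51). On the NF-κB side, log2 fold changes were -2.76 for Nfkbiz, -2.60 for Nfkb2, -2.52 for Relb, -1.27 for Rel and -1.11 for Nfkb1. Rela (-0.82), Stat3 (-0.86) and Irf3 (0.37) did not exceed 2-fold. Whether the changes in these cytokines, receptors and factors were linked to those of the ligands was not tested.

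Among 7 tested factors that bind chemokine mRNA and set its decay, Zc3h12a (Regnase-1), an endonuclease, was the 1 DEG and fell by 3.10 on the log2 scale. Zfp36, which binds ATTTA elements and speeds decay, had a log2 fold change of -0.46, and its relatives Zfp36l1 and Zfp36l2 were at -0.40 and 0.14. Elavl1 (-0.25), Khsrp (0.11) and Hnrnpd (-0.13) also stayed within 2-fold. Among 7 tested proteases that cut or shed CXC ligands, 2 were lower DEGs, Adam17 (-1.20) and Mmp9 (-2.65). Adam10, which sheds Cxcl16, was at 158 ± 6.85 CPM and 186 ± 6.79 CPM (log2 fold change 0.23), and Dpp4, which truncates Cxcl12 and the Cxcr3 ligands, was at 0.75. Mmp2 (0.88), Mmp12 (0.39) and Mmp14 (-0.22) did not exceed 2-fold. Hif1a, an oxygen-regulated factor that controls Cxcl12, fell by 1.88 on the log2 scale, and Epas1 was at -0.96.

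Markers of other cells in the culture moved with the groups. Macrophage markers, for cells that are a source of many CXC ligands, summed to 1330 to 1462 CPM with vehicle and 2806 to 3449 CPM with β-SITO, with 7 of 10 higher DEGs and 2 lower. All 8 endothelial markers were higher DEGs, with sums of 204 to 234 and 837 to 867 CPM. Mural (545 to 616 and 850 to 963 CPM, 3 of 5 higher) and epicardial markers (51.3 to 57.4 and 84.7 to 105 CPM, 2 of 4 higher) moved the same way in part. Fibroblast markers summed to 44413 to 45501 CPM with β-SITO, with 0 of 8 DEGs, and cardiomyocyte markers to 4940 to 8066 CPM, with 2 of 10 higher. The lowest cardiomyocyte sum, 4940 CPM, was that of T4 and lay below the vehicle range of 5831 to 6741 CPM. Among the β-SITO libraries, T4 was lowest for each cardiomyocyte marker and highest for each macrophage marker. Neutrophil markers summed to 2.59 to 3.07 and 0.833 to 1.49 CPM with Ly6g at 0. This fall lay mainly in Camp, with means of 1.81 CPM with vehicle and 0.128 CPM with β-SITO. In the same order, S100a8 was at 0.397 and 0.401 CPM, S100a9 at 0.375 and 0.453 CPM and Mpo at 0.188 and 0.130 CPM. T and NK cell markers summed to 0.690 to 1.33 and 1.85 to 2.34 CPM with Cd3d, Cd3e and Cd3g at 0. The part of these shifts in the ligand values was not tested.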

How the data were processed

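RNA-seq read counts per gene, as deposited by the authors in 1 table of 57010 genes, were used for all 6 libraries. The submitters' processing notes name FastQC, HISAT2, featureCounts and the build GRCm39; versions, strand setting and the handling of multiply mapped reads are not given in the sources used here. Counts were filtered (filterByExpr), scaled by TMM and tested with edgeR 4.0.16 (R 4.3.3; quasi-likelihood, Benjamini-Hochberg over 14799 genes, biological coefficient of variation 6.52%). The SE of a log2 fold change came from the quasi-likelihood dispersion. CPM used TMM-scaled library sizes. RPKM was computed over the union of exons of protein-coding transcripts (GENCODE vM21, GRCm38), matched by Ensembl identifier. Promoters came from RefSeq (GRCm38.p6). DESeq2 1.42.0, limma 3.58.1 (voom), other scalings and filters, and leaving out each library were alternatives. The fit was tested on simulated data. The members and gene lists were chosen with earlier results of these data known; every member is named, as are the genes of the pathway lists and the cluster neighbours that passed the filter and on which a result turned. An item of these lists is not reported here. No pair of libraries of a group agreed within sampling noise.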

Additional observations from a re-analysis of the deposited data

How the results depend on the processing

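The calls of all 10 ligands held in every alternative run (DESeq2, voom, a test against 2-fold, 3 other scalings, 2 other filters, another prior count, no fold threshold and each library left out). The exceptions in direction were Cxcl12, which was not called, at 0.032 with upper-quartile scaling and 0.037 with library size alone; Hnrnpd, at 0.011 and 0.016 in the same settings; and Gm15710, a neighbour of the Cxcl9 cluster, at -0.011 without β-SITO replicate 4 (up to 0.20 with another library left out). The adjusted p of Cxcl12 ranged from 0.0996 to 1. Leaving out 1 library moved the log2 fold change of Cxcl10 between -11.48 (without T4) and -10.02, of Cxcl14 between 2.43 and 3.05, and of Cxcl12 between -0.15 and -0.03. Genes near 2-fold changed call. With upper-quartile scaling or library size alone, Nfkb1, Mthfd2l and G3bp2 were no longer DEGs, and Mmp2 and Ccdc158 became DEGs. Ccdc158 was also a higher DEG with DESeq2 (1.01), with voom (1.04) and without V1, V3, T4 or T6 (1.07 to 1.30). Pf4, Il18, Nfkb1, Mthfd2l and G3bp2 did not pass the test against 2-fold. Cluster neighbours were less stable: lower DEGs numbered 2 with the test against 2-fold, upper-quartile scaling or library size alone, and 10 with no fold threshold; higher DEGs numbered 1 with the test against 2-fold or with at least 1 CPM in 3 libraries, and 4 with no fold threshold, against 4 lower and 2 higher as reported. Higher DEGs of the pathway lists numbered 5 as reported, 8 with no filter, 3 with at least 1 CPM in 3 libraries and 11 with no fold threshold. All DEGs numbered 3380 as reported, 9892 with no fold threshold, 3321 with DESeq2, 3381 with voom and 2442 against 2-fold. Ranks per length used 3 other lengths chosen after seeing the data, and 5 vehicle ranks held with the shortest coding transcripts. No paired analysis was possible because the groups share no replicate numbers. Depth limits Cxcl3, Cxcl9 and Cxcl11 most, at 0 to 3 reads in each β-SITO library.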
